A study of Camelus dromedarius with 10 samples.

Results

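The cholecystokinin receptors are encoded by 2 genes, CCKAR (ENSCDRG00005013202) and CCKBR (ENSCDRG00005015928). They were identified in the count table of the series as the gene IDs that the study's supplementary tables pair with these symbols, which gave 2 members among 22444 gene IDs. CCKAR received 962 read pairs over all libraries and CCKBR 89, and of the 2 members only CCKAR passed the filter on low counts. RNA-seq with depletion of ribosomal RNA had been run on punches of the rostral part of the supraoptic nucleus (SON), taken from one side of the hypothalamus of male dromedary camels aged 4 to 5 years. The 5 control camels (CON2, CON3, CON4, CON5 and CON13, named by the number in their labels) drank freely, and the 5 water-deprived camels (WD6, WD7, WD8, WD9 and WD15) went 20 days without water. Both groups could eat freely, and each library came from a separate camel.

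Cholecystokinin (CCK) is a peptide of the gut and the brain that is best known as a satiety signal and as the hormone that empties the gallbladder. Its receptors are G protein-coupled receptors that act mainly through Gq, phospholipase C, calcium release and protein kinase C. CCKAR binds the sulphated form of CCK with high affinity and gastrin poorly, whereas CCKBR, the more widespread form in the brain, binds CCK and gastrin about equally well. In the SON, the magnocellular neurones that make vasopressin and oxytocin are known to respond to CCK, and in rodents oxytocin neurones also make it.

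The study measured CCKAR in these camels by qRT-PCR as well, and the primers are shown because they define the transcript that was meant by the symbol. Each is 20 bases long, is written 5′ to 3′ and was designed on a transcript that RefSeq also names CCKAR. Their positions in the gene were not analysed here.
CCKAR forward primer: gcagacaaaatcccacgctt
CCKAR reverse primer: catattcgcggtctggttgt

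Total counts ran from 1665098 to 8126641 read pairs per library. Between 27.7% and 76.1% of these fell on 5 dominant gene IDs, and the counts left for all other genes ran from 397495 in CON13 to 5872137 in WD9. Levels are given as CPM (counts scaled to a common library size) after TMM normalization, and 1 read pair was worth 1.20 CPM in CON13, 0.475 CPM in WD6 and 0.0864 CPM in WD9. The libraries were also divided into the 5 with the most counts outside the 5 dominant IDs (CON4, CON5, WD7, WD8 and WD9, called deep) and the other 5 (shallow), which is a technical division and not a condition. The 2 receptors were compared with themselves across libraries and, as read pairs, with each other within a library. Their levels were not ranked against each other, because gene lengths for the assembly were not used here.

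CCKAR was at a higher level in every WD library than in any control library. Its level was 5.98 CPM in CON2, 11.6 in CON3, 8.49 in CON4, 9.66 in CON5 and 10.8 in CON13. In the WD camels it was 18.5 CPM in WD6, 18.0 in WD7, 21.5 in WD8, 30.7 in WD9 and 12.7 in WD15. WD9 was the highest library, WD15 the lowest of the WD camels and CON2 the lowest of all. The means were 9.30 ± 2.19 CPM in control camels and 20.3 ± 6.62 CPM in WD camels (SD, n = 5 per group). The groups did not overlap, and WD lay entirely above control for 1.34% of the 14432 genes tested. The gap at the border was narrow, since the lowest WD library was 1.10 times the highest control library. The Poisson intervals of those libraries, 9.72 to 16.3 CPM for WD15 and 8.58 to 15.3 CPM for CON3, overlapped (exact 95%, counting error only).

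In edgeR's quasi-likelihood F test the log2 fold change of CCKAR was 1.17 (SE 0.262, 95% interval 0.62 to 1.72), a fold of 2.25 (1.53 to 3.29). Its p was 3.17e-04 and its adjusted p 0.0601, so it did not pass the threshold of 0.05. It ranked 76 by p, just outside the 72 genes called (0.499% of those tested, with 0.270% higher and 0.229% lower in WD). The call turned on the model and on single libraries. The adjusted p was 0.0103 with DESeq2's Wald test, 0.0147 with RNA integrity as a covariate, 0.0310 with the depth group as a covariate, 0.0411 without WD15 and 0.0465 without WD6. Without WD9 the log2 fold change was 0.95, with the highest adjusted p of the libraries left out in turn, 0.212. DESeq2 called 1.27% of the genes it tested and the fit with the depth group 1.55%.

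The difference was present at both depths. Among the deep libraries the mean level was 23.4 CPM in 3 WD camels and 9.08 CPM in 2 control camels, a ratio of 2.58. Among the shallow libraries it was 15.6 CPM in 2 WD camels and 9.44 CPM in 3 control camels, a ratio of 1.65. The WD library with the highest CCKAR level, WD9, was also the deepest library. Over the 10 libraries Pearson's r of log2 CCKAR with the log2 of the counts outside the 5 dominant IDs was 0.241, a description over libraries that also differ in condition.

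CCKBR was scarce in all libraries and its mean was lower in the WD camels, but the libraries of the groups overlapped. Its level was 2.13 CPM in CON2, 6.15 in CON3, 1.26 in CON4, 1.32 in CON5 and 4.78 in CON13, from 10, 26, 11, 9 and 4 read pairs. In the WD camels it was 1.42 CPM in WD6, 1.40 in WD7, 1.08 in WD8 and 0.691 in WD9, from 3, 11, 7 and 8 read pairs. No read pair was counted in WD15, which allows a level of up to 0.625 CPM by the floor of 3 counts, while the upper end of the exact 95% Poisson interval, which is wider, is 0.769 CPM. CON3 and CON13 stood highest, whereas CON4 and CON5 were within the range of the WD libraries. The means were 3.13 ± 2.21 CPM in control and 0.919 ± 0.594 CPM in WD camels (SD, n = 5 per group).

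The filter removed CCKBR, so its test was taken from the fit without a filter. There its log2 fold change was -1.66 (SE 0.751, 95% interval -3.20 to -0.11), with a p of 0.0364 and an adjusted p of 0.578. The call was not made under any setting tried, and without CON3 the log2 fold change was -1.17. Depth moved with this value. Among the deep libraries the mean level was 1.06 CPM in WD and 1.29 CPM in control camels, a ratio of 0.819, and among the shallow libraries it was 0.712 CPM and 4.36 CPM, a ratio of 0.163. The lower mean in WD thus rested mostly on the shallow control libraries CON2, CON3 and CON13. With the depth group as a covariate the log2 fold change was -1.36 (SE 0.808, adjusted p 0.669).

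**Figure D1:**
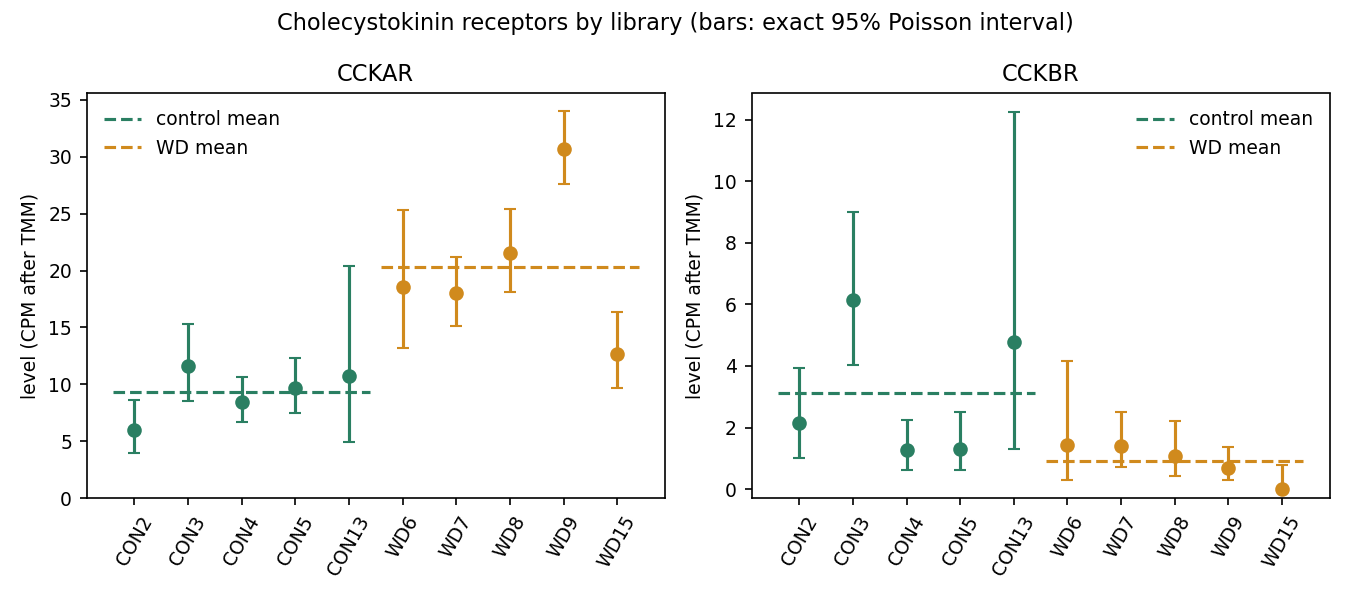
Level of CCKAR (left) and CCKBR (right) in each library, in CPM after TMM normalization, on axes of different range. Points are libraries, bars exact 95% Poisson intervals and dashed lines group means. For CCKAR the WD libraries lie between 12.7 and 30.7 CPM, above all control libraries (5.98 to 11.6 CPM), and for CCKBR the WD libraries lie between 0 and 1.42 CPM and overlap the control libraries.

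Of 10 neuronal markers listed, 6 were paired with an ID, and 1 of these, SLC17A7, was high in the same control libraries. Only GAD1 and GAD2 were paired in the classification tables, and the other 4, SLC17A7 among them, came from the low p-values of the ranked table, which favours genes that differ between the groups. This vesicular glutamate transporter of cortical and hippocampal excitatory neurones was at 8.97 CPM in CON2, 10.9 in CON3 and 20.3 in CON13, against 1.03 in CON4 and 3.22 in CON5. In the WD libraries it was at 3.80 CPM in WD6, 3.19 in WD7, 3.69 in WD8, 0.691 in WD9 and 1.67 in WD15. The 3 libraries with the most CCKBR were thus the 3 with the most SLC17A7. The log2 fold change of SLC17A7 was -1.63 (adjusted p 0.420), and -0.95 with the depth group as a covariate. The summed level of the 6 markers was 420 CPM in CON2, 537 in CON3 and 551 in CON13, against 548 in CON4 and 462 in CON5, so that its order within the controls was not that of CCKBR. Between the groups it was lower in WD camels, as the mean of CCKBR was, with 504 ± 59.3 CPM in control and 350 ± 102 CPM in WD camels (SD, n = 5 per group). The log2 fold changes of the 6 markers ran from -1.63 to -0.04, and none was called, against 0.499% of all genes tested. SLC17A7 was picked out after its values were seen, and its part in the CCKBR values was not tested.

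The balance of the receptors can be read without any scaling, as the share of CCKAR among the read pairs of both. The share was 73.7% in CON2, 65.3% in CON3, 87.1% in CON4, 88.0% in CON5 and 69.2% in CON13. It was 92.9% in WD6, 92.8% in WD7, 95.2% in WD8, 97.8% in WD9 and 100% in WD15. All WD libraries were above all control libraries, and CCKAR gave the majority of the read pairs in each of the 10. The mean share was 76.7% ± 10.4 in control and 95.7% ± 3.15 in WD camels (SD, n = 5 per group), a difference of 19.1 percentage points. No test is given, since the pair was chosen with earlier results known.

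Summed within groups, 226 CCKAR and 60 CCKBR read pairs in control camels gave a share of 79.0% (73.8% to 83.6%), and 736 and 29 in WD camels gave 96.2% (94.6% to 97.4%; exact Clopper-Pearson 95% intervals, counting error only). This corresponds to 3.77 CCKAR read pairs for each CCKBR read pair in control and 25.4 in WD camels. Single libraries were less precise. The interval was 38.6% to 90.9% in CON13, with 13 read pairs of both receptors, and 80.5% to 98.5% in WD6, with 42. Among deep libraries, the control shares of 87.1% and 88.0% were below the WD shares of 92.8% to 97.8%, so the groups were apart at this depth too, with a smaller distance than among the shallow libraries. The interval of CON5, 78.4% to 94.4%, nevertheless overlapped that of WD7, 87.4% to 96.3%.

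**Figure D2:**
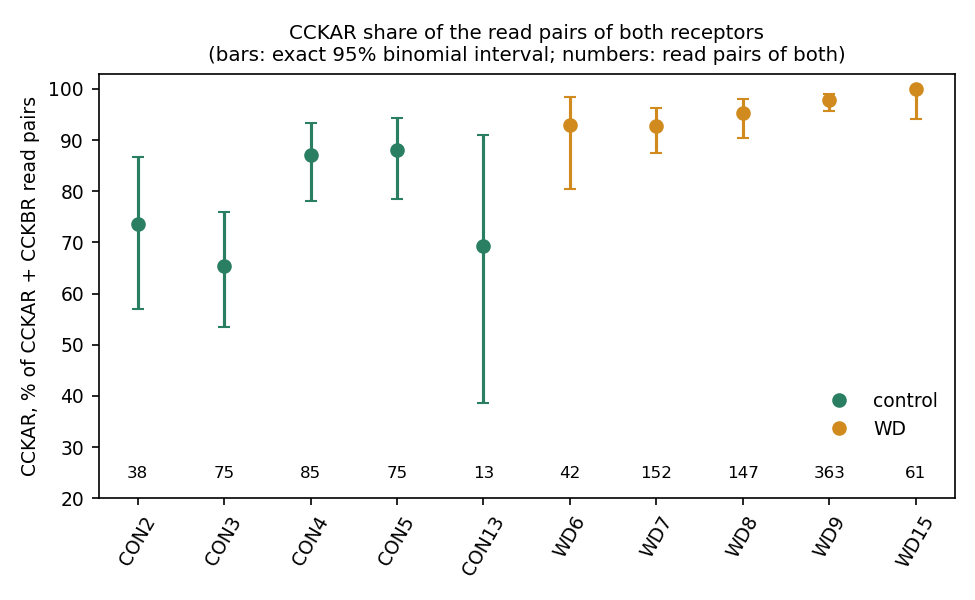
CCKAR read pairs as a percentage of the read pairs of CCKAR and CCKBR in each library, on an axis that starts at 20%. Points are libraries, bars exact 95% binomial intervals, and the numbers along the bottom give the read pairs of both receptors. The control libraries lie between 65.3% and 88.0% and the WD libraries between 92.8% and 100%.

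The transcripts of the ligand genes were scarce in these libraries, and the peptides were not measured. CCK (ENSCDRG00005020365), which encodes the precursor of cholecystokinin, received 52 read pairs in all 10 libraries and was removed by the filter. Its level was 2.35 CPM in CON2, 1.89 in CON3, 0.688 in CON4, 0.586 in CON5 and 1.20 in CON13. It was 0.510 CPM in WD7, 1.12 in WD9 and 1.04 in WD15, and no read pair was counted in WD6 and WD8, which allows up to 1.42 and 0.461 CPM (3 counts). The groups overlapped, with means of 1.34 ± 0.764 CPM in control and 0.535 ± 0.542 CPM in WD camels (SD, n = 5 per group). Among the deep libraries the means were 0.637 CPM in control and 0.545 CPM in WD camels, and among the shallow libraries 1.81 and 0.521 CPM. GAST, which encodes gastrin, received 4 read pairs in all.

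Pro-CCK is cut by prohormone convertases, trimmed by carboxypeptidase E, sulphated by tyrosylprotein sulphotransferases and amidated by PAM. Of 14 genes listed for the peptides and their maturation and breakdown, 11 were paired with an ID in the study's classification tables and 8 were tested. Among these 8, 1 rose and 1 fell, against 0.270% and 0.229% of all genes tested, and the median log2 fold change was 0.28, against 0.017 over all genes tested. PCSK1 (prohormone convertase 1) rose from 161 to 285 CPM in control camels to 642 to 1206 CPM in WD camels, without overlap. Its log2 fold change was 2.02 (SE 0.223, adjusted p 2.49e-04). PCSK2 (prohormone convertase 2), an enzyme that also cuts pro-CCK, fell from a mean of 50.3 to 17.8 CPM, by 1.53 on the log2 scale (SE 0.279, adjusted p 0.0144). Its WD libraries were all below the control libraries, as in 1.27% of the genes tested, and without WD8 the adjusted p was 0.0538. The other convertases tested, PCSK5 (log2 fold change -0.87, adjusted p 0.299) and PCSK6 (-0.14, adjusted p 0.914), did not pass the threshold.

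PAM, which makes the amide end that CCK needs to act, rose from a mean of 145 to 451 CPM (log2 fold change 1.63, adjusted p 0.00313). It is kept apart from the counts because its ID was paired only through the study's ranked table, of which the part with the lowest p-values was available, as was the ID of CCKAR. The log2 fold change of CPE (carboxypeptidase E) was 0.34 (adjusted p 0.694) and that of TPP2, a peptidase that breaks CCK down, 0.37 (adjusted p 0.694). CTSL, a protease that also cuts pro-CCK, was removed by the filter like CCK and GAST. TPST1 and TPST2, the sulphotransferases, were not paired with an ID. All of these enzymes act on many other peptide precursors.

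Downstream of the receptors, 12 of the 21 listed genes of the Gq pathway that are reported here were paired in the classification tables and tested. None of these 12 was called by edgeR, against 0.499% of all genes tested. An unadjusted p under 0.05 was found for 6, against 9.31% of all genes tested. The median log2 fold change of the 12 was 0.02, against 0.017 over all genes tested. DESeq2 called 1 of them, CAMK2A, lower, against 1.27% of all genes it tested. CAMK2A, the alpha subunit of the calcium- and calmodulin-dependent kinase CaMKII, was at 89.7 CPM in CON2, 86.3 in CON3, 88.4 in CON4, 87.2 in CON5 and 68.2 in CON13. It was at 62.2 CPM in WD6, 49.4 in WD7, 46.9 in WD8, 46.0 in WD9 and 28.8 in WD15, so that all WD libraries were below all control libraries. This was so for 2 of the 12, CAMK2A and the protein kinase C gene PRKCE (adjusted p 0.321), against 1.27% of all genes tested. Its log2 fold change was -0.87 (SE 0.190, adjusted p 0.0501), and the adjusted p was 0.0498 without CON13 and 0.0122 without WD6. The largest positive value among these 12 was that of PLCB2, a phospholipase C of the beta class, at 0.83 (adjusted p 0.728), which was 0.44 without WD15, 0.53 without WD8 or without CON5 and 0.27 with RNA integrity as a covariate. Another 4 members were paired only through the ranked table, and none was called. Among them GNAQ, the alpha subunit of Gq itself, had a log2 fold change of 0.47 (adjusted p 0.482) and GNA15, a relative of it, 0.91 (adjusted p 0.478). The calcium release channels ITPR1 and RYR2 had values of -0.39 (adjusted p 0.522) and -0.47 (adjusted p 0.267), and for RYR2 all WD libraries were below the control libraries.

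Receptors of this class are switched off by G protein-coupled receptor kinases and arrestins. Of 9 genes listed for desensitisation, 5 were paired and tested, all of them kinases. None was called by edgeR or DESeq2, against 0.499% and 1.27% of all genes that each tested. In edgeR 0 had an unadjusted p under 0.05, against 9.31% of all genes tested. Counts of 0 among 5 genes are near these shares. The log2 fold changes of the 5 ran from -0.09 for GRK5 to 0.42 for GRK6 (adjusted p 0.605). Their median was 0.13, against 0.017 over all genes tested. The value of GRK5 changed sign under 3 alternatives. The arrestins ARRB1 and ARRB2 were not paired with an ID.

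Other receptors of peptides that act on feeding, drinking and the pituitary were listed beside CCKAR. CCKAR was paired only through the low p-values of the ranked table, and these receptors through the classification tables. The standing of CCKAR among them can therefore not be read as a result. Of 34 listed, 26 were paired, 14 of these were removed by the filter as CCKBR was, and 12 were tested. None of the 12 was called by edgeR, against 0.499% of all genes tested, and 4 had an unadjusted p under 0.05 (9.31% of all genes tested). DESeq2 called 1 (ADCYAP1R1, lower, against 1.27% of all genes it tested). The median log2 fold change was -0.17, against 0.017 over all genes tested. The highest value was that of GLP1R, the receptor for glucagon-like peptide-1, at 1.21 (SE 0.345, adjusted p 0.192), close in size to that of CCKAR. It was called without WD15 (adjusted p 0.0491) and with RNA integrity as a covariate (0.00896). The lowest was that of GIPR, the receptor for gastric inhibitory polypeptide, at -1.60 (SE 0.629, adjusted p 0.422). GIPR was at its highest, 21.5 CPM, in CON13, the shallowest library. In 2 of the 12 the libraries did not overlap, against 2.62% of all genes tested. These were CALCR, the calcitonin receptor, with a mean of 127 CPM in control and 209 CPM in WD camels, and ADCYAP1R1, a receptor of the peptide PACAP, with 385 and 258 CPM. Both are named because of these values, and their adjusted p-values were 0.203 and 0.194.

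**Figure D3:**
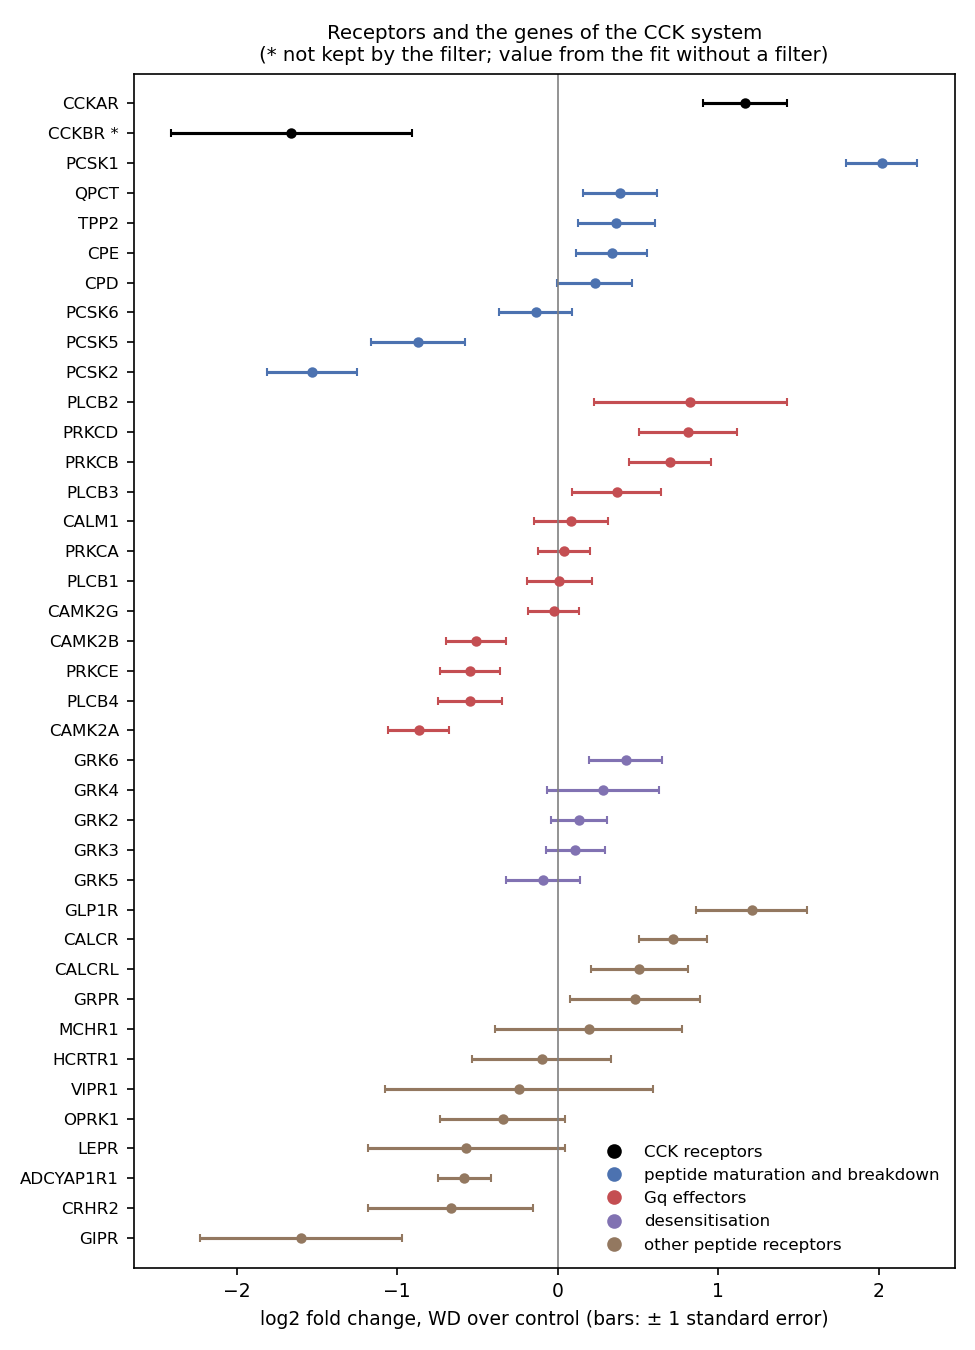
Log2 fold change, WD over control, of the CCK receptors and of tested genes of the 4 lists, with bars of 1 standard error to each side. Values to the right of 0 are higher in WD camels. PCSK1 at 2.02 and PCSK2 at -1.53 are the members of the lists drawn here that passed the threshold, and CCKBR, drawn from the fit without a filter, has the widest bar after that of VIPR1.

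Genes whose level followed that of CCKAR from library to library were sought among 1305 tested genes with a symbol in the classification tables and at least 10 counts in every library. Of the 5 with the highest Pearson's r over the log2 CPM of the 10 libraries, 4 are reported here, GLP1R (0.867), PCSK1 (0.862), ADRA1A (0.840) and CTSB (0.839). These correlations include the difference between the groups, so the choice favoured genes that were higher in WD camels, as CCKAR was. Within groups, over deviations from the group means, r was 0.782 for GLP1R, 0.637 for CTSB, 0.440 for PCSK1 and 0.380 for ADRA1A. The libraries share their depth and tissue content across genes, and the correlations are descriptions.

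GLP1R, the closest of them, was at 6.19 CPM in CON2, 13.7 in CON3, 9.64 in CON4, 14.9 in CON5 and 13.2 in CON13. In the WD camels it was at 30.8 CPM in WD6, 34.1 in WD7, 16.6 in WD8, 39.9 in WD9 and 9.38 in WD15. WD9 was thus the highest and CON2 the lowest library for both receptors, and WD15 was the lowest WD library for both. Unlike CCKAR, GLP1R in WD15 was within the control range. ADRA1A, the alpha 1A adrenoceptor, which is also coupled to Gq, rose from 15.9 to 22.7 CPM in control to 27.5 to 44.0 CPM in WD camels (log2 fold change 0.95, adjusted p 0.0241). This call was lost without any of CON2, CON3, CON4, CON5, WD7 and WD9, with adjusted p-values of 0.0721 to 0.106. For CTSB (the lysosomal protease cathepsin B) all WD libraries were above the control libraries, as in 1.34% of the genes tested, but the adjusted p was 0.607. CCKBR, with fewer than 100 read pairs, was not compared in this way.

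**Figure D4:**
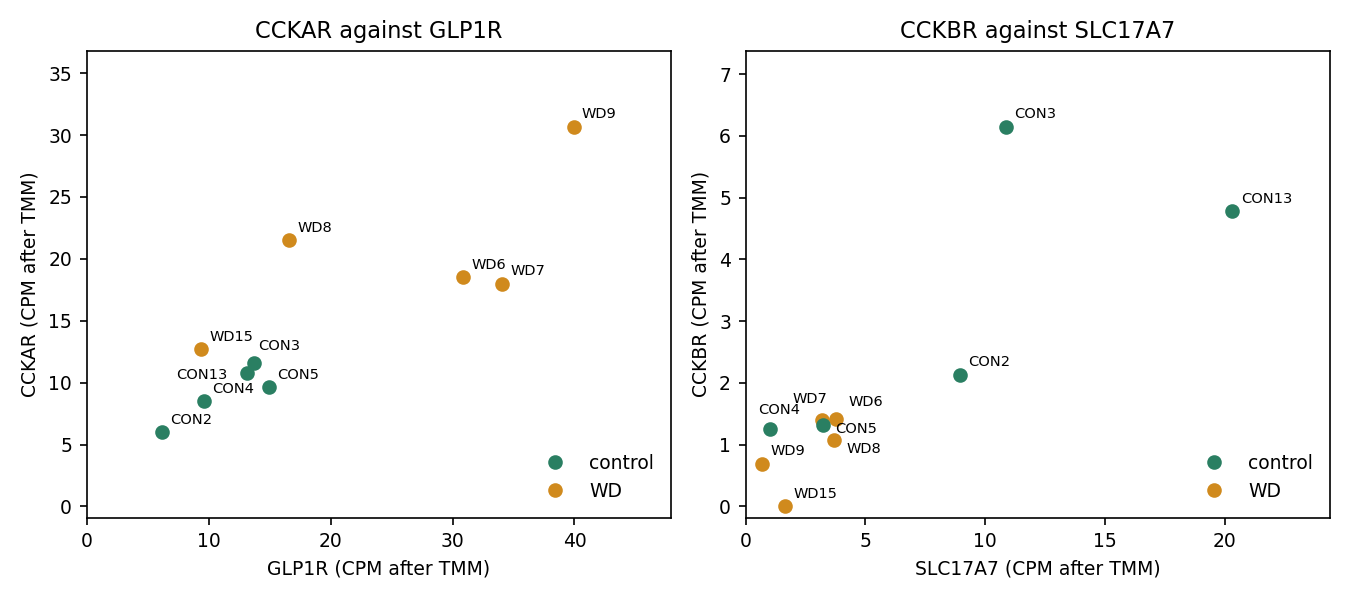
CCKAR against GLP1R (left) and CCKBR against SLC17A7 (right), each in CPM after TMM normalization, with 1 point per library. WD9 is highest for CCKAR and GLP1R (30.7 and 39.9 CPM), and CON2, CON3 and CON13 are the libraries with the most CCKBR and the most SLC17A7.

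A punch holds several cell types, and in bulk RNA fewer cells of a type cannot be told apart from less RNA per cell. Of 7 markers listed for the magnocellular lineage, 6 were paired, and AVP and OXT were not analysed here. The mean level was 71.0 CPM in control and 68.8 CPM in WD camels for SIM1, 366 and 359 CPM for ARNT2, and 39.5 and 25.7 CPM for OTP, with PEG3 at 9.01 and 12.1 CPM and CREB3L1 at 6.13 and 4.95 CPM. None of these 5 was called, and the signs of SIM1 and ARNT2 changed between settings. The 1 of the 6 that was called, against 0.499% of all genes tested, was PDYN. PDYN, the dynorphin precursor of vasopressin neurones, rose from a mean of 162 to 618 CPM (adjusted p 3.02e-04). With it the summed level of the 6 markers was 516 to 720 CPM in control and 845 to 1285 CPM in WD camels. The summed level of SIM1, OTP and ARNT2 was chosen as a measure after the values were seen, and ARNT2 made up most of it. Relative to this sum CCKAR was at 1.58% to 2.26% in control and 3.23% to 6.76% in WD camels, without overlap. The level of CCKAR alone did not overlap either, and WD lay above control for 1.34% of the genes tested. Relative to the sum of all 6 markers, which includes PDYN, CCKAR was at 1.16% to 1.80% in control and 1.31% to 2.83% in WD camels, and the groups overlapped. On that scale WD15 (1.31%), WD7 (1.42%) and WD6 (1.44%) were below CON3 (1.80%).

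None of the markers of other cells paired in the classification tables was called, against 0.499% of all genes tested. Of those paired only through the ranked table, 1 was called. All 12 microglial markers were paired, 7 of them, C1QA included, through the ranked table and so with a bias to genes that differ between the groups. Their summed level was 422 to 663 CPM in control and 559 to 2034 CPM in WD camels. Of these C1QA, a complement gene named after its values were seen, rose from a mean of 38.1 to 122 CPM (adjusted p 0.0232), a call that was lost without any of CON3, CON5, CON13 and WD8 (adjusted p 0.0672 to 0.133). The microglial sum of WD8, WD6 and WD7 (1021, 990 and 636 CPM) had the same order as CCKAR, and that of WD9 and WD15 did not. WD9, with the most CCKAR, had the lowest microglial sum of the WD camels (559 CPM), and WD15, with the least CCKAR, had the highest (2034 CPM) and the lowest neuronal sum of all libraries (207 CPM). Of 7 astrocytic markers 3 were paired, all through the ranked table, and summed to 298 to 416 CPM in control and 475 to 624 CPM in WD camels. The sums of oligodendrocyte markers (8 of 11 paired, 146 to 322 CPM in control and 128 to 239 CPM in WD camels) and of endothelial markers (7 of 9 paired, 244 to 434 and 257 to 526 CPM) overlapped between the groups. VIP and GRP, the markers paired of 3 listed for the neighbouring suprachiasmatic nucleus, summed to at most 5.98 CPM in control and 1.66 CPM in WD camels, where the lowest sum was 0. The part of tissue content in the levels of the receptors was not tested.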

How the data were processed

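The authors trimmed and aligned the reads to the assembly Camdro2 with STAR 2.5.3a and counted read pairs per gene with featureCounts. They deposited raw counts per gene for 22444 Ensembl IDs, with no normalization and no pooling of camels. The annotation release and strand setting are not given in the sources used here, so overlapping genes are uncertain. Their table of normalized values and the columns of their own comparison (fold changes and p-values) were not used. The qRT-PCR values were not analysed here.

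Supplementary tables of the study paired 4351 IDs with a symbol, 3160 of them in its classification tables. The other 1191, CCKAR among them, came only from a ranked table held in part. Counts of list members use the classification tables.

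Groups were taken from the labels. Libraries were compared with edgeR 4.0.16 in R 4.3.3 (TMM, filterByExpr by group, robust quasi-likelihood F test, Benjamini-Hochberg adjustment over 14432 genes, threshold 0.05). The standard error is the log2 fold change divided by the square root of F. DESeq2 1.42.0 was an alternative, beside other scalings, filters, covariates and libraries left out. The edgeR step was tested on simulated data. Correlations used log2 CPM with a prior count of 0.5.

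The receptors and lists were chosen with earlier results of these data known. Genes named are the receptors, CCK, list members past the threshold, the largest rise and fall of each list and the 5 genes of most similar pattern. Others are said to have been picked by their values, or stand as markers or as members of a described group. Results on some genes that these rules name are not reported here, and list counts leave them out.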

Additional observations from a re-analysis of the deposited data

How the results depend on the processing

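The log2 fold change of CCKAR was positive under all 20 alternatives. Its adjusted p passed 0.05 under 5 of them, with log2 fold changes of 1.17 (DESeq2's Wald test), 1.32 (RNA integrity as a covariate), 1.11 (depth group as a covariate), 1.20 (without WD6) and 1.30 (without WD15). With each library left out in turn it ran from 0.95 to 1.30. Library totals without TMM gave 1.35, with an adjusted p of 0.720, and moved the median of all genes to 0.16. CCKBR was negative and not called under 19 alternatives, from -1.91 to -1.17 with libraries left out in turn. The filter of at least 10 counts in every library left no value for either receptor. The genes called, 72, became 209 with DESeq2, 10 with library totals only and 224 with the depth group as a covariate. They ran from 40 (without CON3) to 102 (without WD6) with libraries left out in turn, and were 42 without CON5. The cause was not tested. The difference in the share of CCKAR was 16.2 to 21.9 percentage points with libraries left out in turn and 17.9 without CON13 and WD6, the 2 shallowest. No paired analysis was possible because the groups are separate camels and the labels give no pairing. Among other named genes, PCSK1 and PDYN passed the threshold under every alternative, whereas library totals only ended the calls of PCSK2, PAM, ADRA1A and C1QA. CAMK2A passed it under 10 alternatives and ADCYAP1R1 under 2. The sign of some uncalled values near 0 was not stable. With libraries left out in turn GRK5 ran from -0.19 to 0.053, SIM1 from -0.21 to 0.13 and ARNT2 from -0.13 to 0.013. Library totals only gave 0.043, 0.16 and 0.097 for these genes, and RNA integrity as a covariate gave 0.17 for SIM1 and 0.0085 for ARNT2. Depth limits CCKBR, CCK and GAST, which have under 100 read pairs each.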
